A study of Mus musculus with 12 samples.

Results

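The mitosis and spindle genes are 40 listed genes that carry a cell through mitosis, from entry to the separation of the chromosomes. They were taken from a list of gene symbols that uses no threshold on measured values, though it was drawn up with earlier results of these arrays known. A gene was measured where a probe set was annotated to its symbol alone, and the probe set with the highest mean over all 12 arrays stood for it. In this way 38 of the 40 were measured, among 12393 genes on the array. Ccnb1 and Espl1 had no probe set of their own and were not analysed here.

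RNA was profiled on Affymetrix mouse arrays in 4 groups of 3 arrays. The Unstimulated group was RAW264.7 cells, a macrophage-like line from a male mouse transformed by a leukaemia virus, cultured overnight without estradiol. In the Estradiol group the same line was cultured overnight with estradiol at 1 µg/mL. The Control and Pregnant groups were cells washed from the lungs of control and of intact pregnant mice (bronchoalveolar lavage, called alveolar macrophages in the series title), with RNA taken directly. The labels attach the estradiol text to every sample, so the groups were taken from the group label. The series' design names a vehicle for the cell line, and the labels used here give no strain, age, sex of the control mice, stage of pregnancy or cell sorting. Nothing in them says whether the 3 samples of a group came from separate cultures or animals, so the p-values reflect the spread among these 3 arrays per group and nothing wider, and that spread may be technical.

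Mitosis starts when CDK1 bound to its cyclin is activated by CDC25 phosphatases, after which Polo and Aurora kinases drive centrosome separation and spindle assembly. The spindle checkpoint (Bub1, Bub1b, Bub3, Mad2l1, Ttk) holds CDC20 back until every kinetochore is attached, and the anaphase-promoting complex then marks cyclins and securin for destruction. Most of these genes are transcribed in a burst in G2 phase, so their mRNA in a bulk sample rises with the share of cycling cells. Alveolar macrophages are long-lived cells of the lung that renew themselves locally by a low rate of division, whereas RAW264.7 divides continuously.

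The late cell cycle burst is tied to 2 short promoter elements, the cell cycle homology region (TTTGAA), which is bound by MuvB-containing complexes, and the CCAAT box (CCAAT), which is bound by NF-Y. Promoters reaching from 250 bases before to 50 bases after the transcription start were taken from RefSeq (mouse GRCm38.p6), and 30 of the 38 measured members had an entry. Both motifs were searched on either strand, and a match of one can share no more than an end base with a match of the other. TTTGAA was in 22 of the 30 members (73.3%), against 20.2% of all 27025 genes with a promoter of this length and 15.4% of the 9887 that were also measured on the arrays, a background added after the data were seen. CCAAT was in 25 members (83.3%), against 41.1% of all genes, and 21 members (70.0%) held both, against 7.97%. Of 44 other mitotic genes with a promoter entry, 56.8% held TTTGAA and 36.4% held both, and of 30 DNA replication and S phase genes, 13.3% held TTTGAA. A match is a description and not a binding site.

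The 150 bases before the start, 5′ to 3′ on the gene's strand, are given for 8 members named in the results. They were chosen after the values were seen. Capitals mark TTTGAA or its complement TTCAAA, and CCAAT or its complement ATTGG.
Cdc20, chr4:118437344-118437493, minus strand: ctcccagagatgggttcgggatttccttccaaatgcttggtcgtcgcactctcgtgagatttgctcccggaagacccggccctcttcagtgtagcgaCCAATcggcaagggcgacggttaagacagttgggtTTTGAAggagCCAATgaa
Ube2c, chr2:164769779-164769928, plus strand: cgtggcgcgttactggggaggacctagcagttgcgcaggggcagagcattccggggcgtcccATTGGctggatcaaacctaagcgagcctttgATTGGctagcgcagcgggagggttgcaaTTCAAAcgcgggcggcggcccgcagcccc
Cdk1, chr10:69352913-69353062, minus strand: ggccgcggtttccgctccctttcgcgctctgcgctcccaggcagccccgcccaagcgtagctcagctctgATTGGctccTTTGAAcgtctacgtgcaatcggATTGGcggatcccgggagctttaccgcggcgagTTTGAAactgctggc
Kif11, chr19:37376232-37376381, plus strand: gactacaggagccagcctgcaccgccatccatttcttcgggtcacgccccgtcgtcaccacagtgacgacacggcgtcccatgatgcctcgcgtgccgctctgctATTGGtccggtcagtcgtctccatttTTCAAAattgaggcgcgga
Top2a, chr11:99024190-99024339, minus strand: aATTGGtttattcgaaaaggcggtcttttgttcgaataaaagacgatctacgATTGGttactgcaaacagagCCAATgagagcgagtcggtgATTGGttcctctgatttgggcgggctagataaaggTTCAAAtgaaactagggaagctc
Bub1, chr2:127831860-127832009, minus strand: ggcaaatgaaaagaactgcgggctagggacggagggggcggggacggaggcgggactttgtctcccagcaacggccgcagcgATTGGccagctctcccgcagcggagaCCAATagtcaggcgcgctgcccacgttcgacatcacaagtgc
Cdc25b, chr2:131186798-131186947, plus strand: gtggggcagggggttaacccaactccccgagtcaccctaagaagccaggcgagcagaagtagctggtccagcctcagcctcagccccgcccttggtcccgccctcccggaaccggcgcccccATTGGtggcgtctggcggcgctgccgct
Plk4, chr3:40799801-40799950, plus strand: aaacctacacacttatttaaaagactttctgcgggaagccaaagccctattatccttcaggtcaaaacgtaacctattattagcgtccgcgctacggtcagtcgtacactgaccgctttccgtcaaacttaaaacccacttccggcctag
Cdc20, Ube2c, Kif11 and Top2a each had 1 TTTGAA match in the printed stretch and Cdk1 had 2. Top2a, which untangles sister chromatids, had 4 CCAAT matches. Bub1 and Cdc25b had CCAAT matches only. Plk4, the kinase that starts centriole duplication, had neither set of letters in this window. The Cdc25b stretch lies before a transcript start inside the span listed for the gene.

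The arrays held probe set intensities that the authors had normalized together, and every level below is log2(intensity + 1). The median intensity of an array lay between 369.5 and 392.8, and arrays of one group correlated at 0.995 to 0.999 over all genes. The number of arrays, 3 per group, limits the precision. The cells carried macrophage markers: Csf1r was between 13.22 and 13.87 and Cd68 between 13.68 and 13.84 on all 12 arrays. Marco, a scavenger receptor of alveolar macrophages, was between 11.14 and 12.01 in lavage and between 6.63 and 6.80 in RAW264.7. Genes listed as markers of other cells were also read in lavage. Epcam, listed as epithelial, was at 10.62, 10.50 and 10.51 in Control and 11.59, 11.06 and 11.62 in Pregnant arrays. Sftpc, a surfactant gene on the same list, did not follow it, at 11.72, 9.42 and 10.83 and 11.48, 12.74 and 10.81. The T cell gene Cd3e was at 7.68, 8.46 and 6.69 in Control and between 6.08 and 7.01 in Pregnant arrays. Which cells this RNA came from was not tested.

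**Figure D1:**
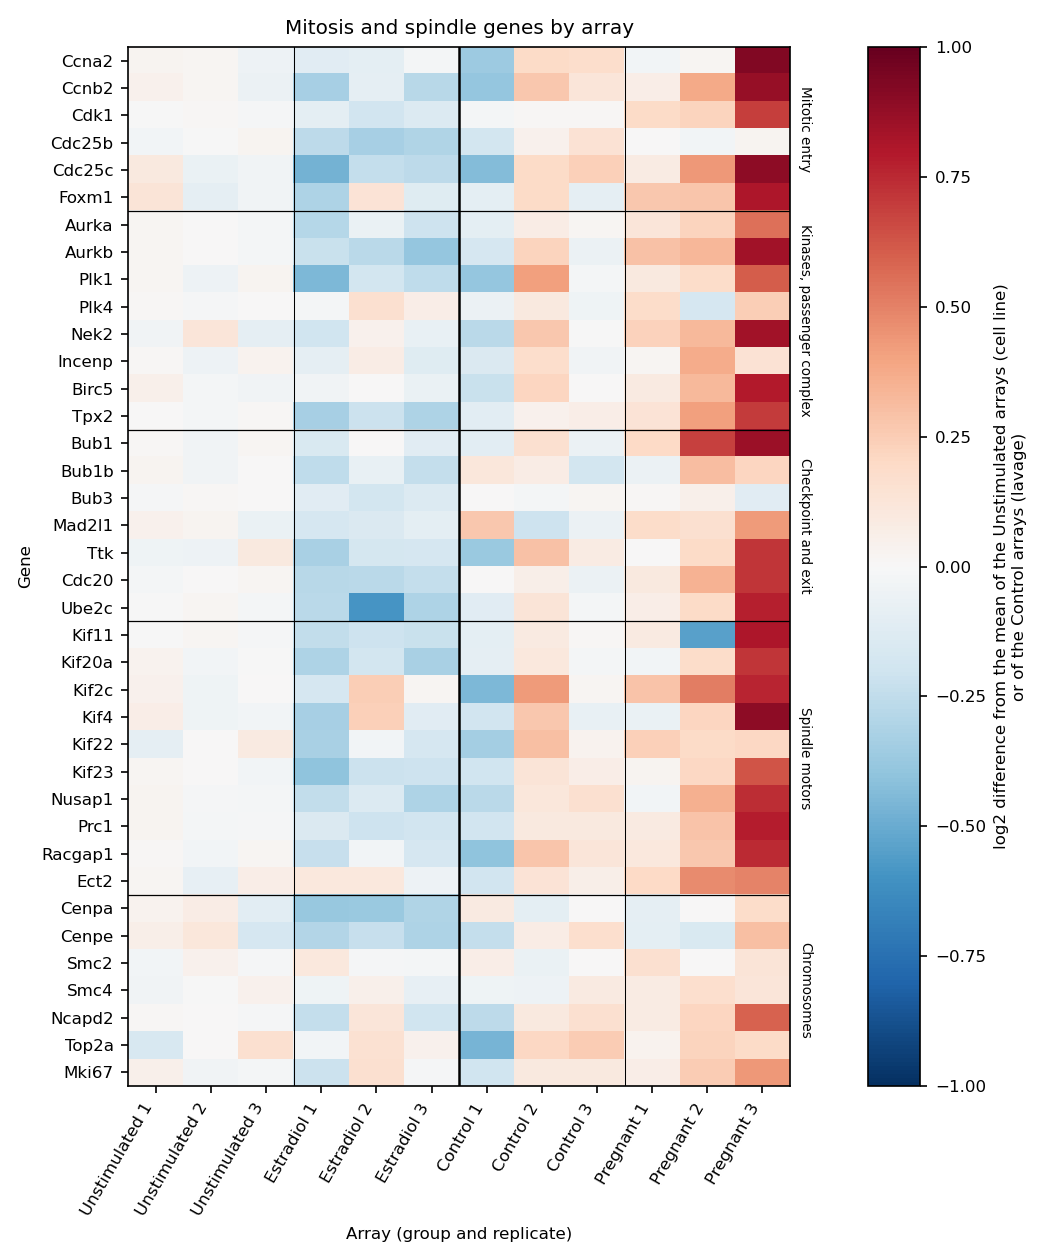
Heat map of the 38 measured members (vertical axis, ordered by role) over the 12 arrays (horizontal axis). Colour gives the log2 difference from the mean of the Unstimulated arrays for the cell line and from the mean of the Control arrays for lavage. The Estradiol columns are mostly below 0, and Pregnant 3 stands above 0 for 37 of 38 genes.

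Mitotic transcripts were far lower in lavage cells than in the dividing cell line. In Control lavage against Unstimulated RAW264.7, all 38 members were lower with no overlap between the groups, against 39.1% of all genes, and 37 were called lower at an adjusted p under 0.05 (limma, Benjamini-Hochberg over 12393 genes), against 34.0% of all genes. The median difference was -2.19, against -0.068 over all genes. The comparison joins a cell line with cells from animals, so source, culture, sex and handling cannot be told apart. In bulk samples such as these, fewer cells of a type and less RNA per cell cannot be told apart either.

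Cdc20, the activator of the anaphase-promoting complex, had the smallest p. It was at 11.82, 11.85 and 11.87 in Unstimulated and at 8.75, 8.81 and 8.69 in Control arrays, a difference of -3.10 ± 0.050 (SE, n = 3 against 3), or 8.56-fold lower (limma adjusted p = 6.0e-08). The spread within each group was small beside that gap. Aurka, the centrosomal Aurora kinase, was at 11.86, 11.85 and 11.83 against 8.69, 8.86 and 8.80, 8.35-fold lower (limma adjusted p = 9.9e-08). Cdk1, the kinase that triggers mitosis, was at 12.57, 12.59 and 12.57 against 10.39, 10.43 and 10.42, 4.48-fold lower (limma adjusted p = 1.0e-07). Kif11, the motor that pushes spindle poles apart, was at 11.26, 11.29 and 11.25 against 8.51, 8.69 and 8.62, 6.33-fold lower (limma adjusted p = 1.9e-07).

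By fold, Cdc25c (10.6-fold lower) and Nek2 (10.5-fold), a centrosome-separating kinase, differed most. Both were dim in lavage, above the 40th percentile of their array on 1 and 0 of the 6 lavage arrays, so their fold rests on values near the low end of the scale. Bub1, a checkpoint kinase, followed at 9.53-fold lower, from 12.35, 12.30 and 12.35 to 8.97, 9.24 and 9.02. By role, the median difference was -2.89 for the checkpoint and anaphase genes, Cdc20 and Ube2c included, and -2.42 for the mitotic kinases. It was -2.36 for entry into mitosis, -1.94 for the spindle motors and microtubule proteins and -1.50 for chromosome structure.

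The members did not drop by a common amount. Smc4, a condensin subunit that also acts outside mitosis, was at 12.09, 12.12 and 12.17 and 11.70, 11.69 and 11.83, only 1.31-fold lower, and was called (limma adjusted p = 0.00115). Bub3 was 1.58-fold lower. Mki67, the usual marker of cycling cells, was at 12.75, 12.67 and 12.69 against 11.15, 11.45 and 11.44, 2.56-fold lower. The exception to the calls was Cdc25b, a phosphatase that activates CDK1, at 12.45, 12.47 and 12.50 against 12.11, 12.34 and 12.44 (limma adjusted p = 0.123), with the groups just apart. Its call turned without Control replicate 3 (limma adjusted p = 0.0439). The 34 measured S phase genes were all called lower too, with a smaller median of -1.17, as were 39 of 40 other mitotic genes, with a median of -2.25. The share of all genes called lower was 34.0%.

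**Figure D2:**
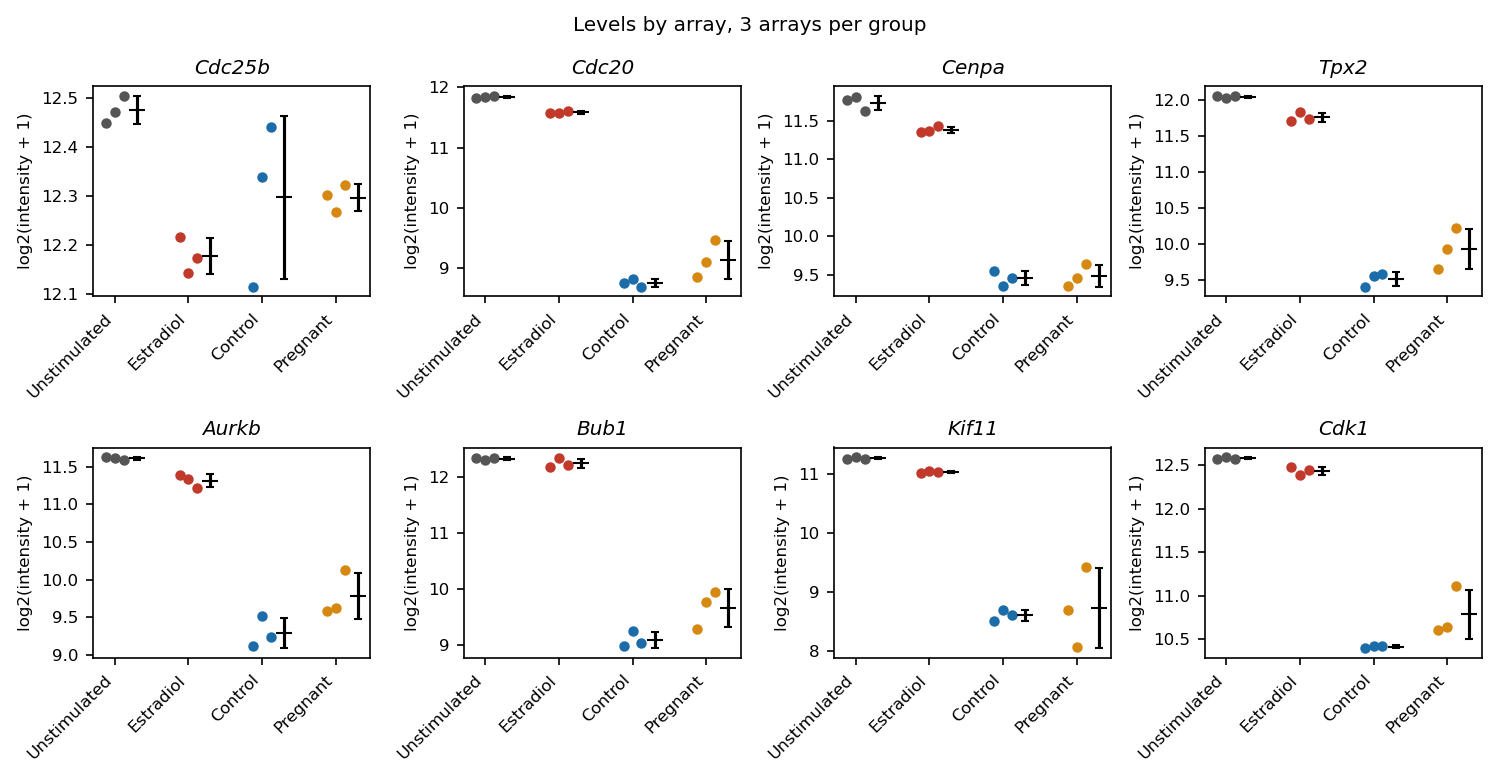
Levels of 8 members on each array (vertical axis of each panel, log2 of intensity + 1) by group (horizontal axis), with points for arrays and a black bar for the group mean with its SD, n = 3. For 7 of the genes the gap between cell line and lavage exceeds the shift within either source, and Cdc25b is the exception.

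The next comparison asked what estradiol did to the dividing cell line. Mitotic transcripts had modestly lower values with estradiol: 33 of 38 members had a negative difference, against 45.1% of all genes, and the range ran from -0.39 to 0.068. The median was -0.16, against 0.017 over all genes. With limma, 11 members were called lower and 0 higher, against 4.66% of all genes called lower and 6.75% called higher. At an unadjusted p under 0.05, 21 were lower and 0 higher (11.2% and 15.7% of all genes). The 3 Estradiol arrays lay below all 3 Unstimulated arrays for 21 members, against 14.9% of all genes.

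The number of calls rested on single arrays. Leaving out Unstimulated replicate 1, 2 or 3 left 1, 0 or 2 members called, and leaving out Estradiol replicate 1, 2 or 3 gave 7, 17 or 3. The median stayed between -0.22 and -0.15. In a fit of all 12 arrays 2 members were called, and after aligning the array medians 5 were. The share of all genes called lower moved too, from 1.94% without Unstimulated replicate 2 to 6.22% without Estradiol replicate 2. Over 16 settings, the reported one included, Cdc25b and Cenpa were each called in 14, Cdc20, Aurkb and Ube2c in 11 and Nusap1 in 6. The summed intensity of the 38 members was 143499 to 144900 on Unstimulated arrays and 127571 to 135423 on Estradiol arrays, which do not overlap.

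Among genes of mitotic entry, 2 of 6 were called lower, against 4.66% of all genes, with a median of -0.19. Cdc25b read 12.45, 12.47 and 12.50 in Unstimulated and 12.21, 12.14 and 12.17 in Estradiol arrays. All 3 treated arrays were lower, by -0.30 ± 0.047 (SE, n = 3 against 3), which is 1.23-fold (limma adjusted p = 0.0100, the smallest of the members). Cdc25c, which acts on CDK1 in the same step, read 10.17, 10.01 and 10.04 and 9.60, 9.83 and 9.81, a change of -0.32 ± 0.081 just past the threshold (limma adjusted p = 0.0492). Cdk1 read 12.57, 12.59 and 12.57 and 12.48, 12.39 and 12.44; its groups did not overlap, and it was not called (-0.14 ± 0.048, limma adjusted p = 0.112). The differences were -0.076 for the S and G2 phase cyclin Ccna2, -0.23 for the mitotic cyclin Ccnb2 and -0.098 for Foxm1, a transcription factor of the G2 burst, none of them called. The other probe set of Ccna2 gave -0.29, and those of Foxm1 gave 0.031, -0.018 and -0.38.

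Of the mitotic kinases and their partners, Tpx2 and Aurkb were called lower, against 4.66% of all genes, with a median of -0.13 over the 8. Tpx2, which activates Aurora A on the spindle, read 12.05, 12.02 and 12.06 without and 11.71, 11.83 and 11.73 with estradiol. The groups lay well apart, by -0.28 ± 0.051 (limma adjusted p = 0.0157), but the gene's other probe set gave 0.21, and the mean of both was not called (-0.037, limma adjusted p = 0.702). Aurkb, the kinase of the chromosomal passenger complex, read 11.62, 11.61 and 11.59 against 11.38, 11.34 and 11.22, lower by 1.23-fold (-0.29 ± 0.058, limma adjusted p = 0.0211). Plk1, the Polo kinase of mitotic entry, fell just short, at 10.66, 10.59 and 10.67 against 10.20, 10.46 and 10.39 (-0.29 ± 0.076, limma adjusted p = 0.0531). Its groups did not overlap. Incenp and Birc5, the scaffold and survivin subunits of the Aurkb complex, differed by -0.047 and -0.033, Nek2 by -0.077 and Plk4 by 0.068, none called.

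In the checkpoint and anaphase group all 7 differences were negative, against 45.1% of all genes, with a median of -0.19. Of these, 2 were called lower, against 4.66% of all genes. Cdc20 read 11.82, 11.85 and 11.87 and 11.57, 11.57 and 11.61, 2 tight and separate sets of values. The change was -0.26 ± 0.045 (limma adjusted p = 0.0128), and the gene's other probe sets gave -0.055 and -0.041. Ube2c, the ubiquitin-conjugating enzyme of the anaphase-promoting complex, read 12.45, 12.47 and 12.43 against 12.18, 11.86 and 12.14. It had the largest decrease of the members, 1.31-fold (-0.39 ± 0.090, limma adjusted p = 0.0373). The checkpoint genes themselves were not called: Bub1 differed by -0.087, Bub1b by -0.19, Bub3 by -0.14, Mad2l1 by -0.14 and Ttk by -0.22.

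Of the spindle motors and microtubule proteins 4 of 10 were called lower, against 4.66% of all genes, with a median of -0.18. Kif11 read 11.26, 11.29 and 11.25 and 11.02, 11.06 and 11.04 (-0.23 ± 0.044, limma adjusted p = 0.0212), with arrays of each group within a narrow band. Kif20a, a motor of the central spindle, read 11.58, 11.52 and 11.54 against 11.24, 11.36 and 11.22 (-0.27 ± 0.056, limma adjusted p = 0.0259). Kif23, the motor subunit of centralspindlin, read 11.78, 11.77 and 11.74 against 11.36, 11.55 and 11.55 (-0.27 ± 0.066, limma adjusted p = 0.0428). Each of these motors was lower on all 3 treated arrays. Nusap1, which bundles spindle microtubules, read 12.07, 12.03 and 12.02 against 11.79, 11.90 and 11.73 (-0.23 ± 0.058, limma adjusted p = 0.0487). The midzone bundler Prc1 was next in order (-0.18 ± 0.047, limma adjusted p = 0.0540). Ect2 and Racgap1, which signal to the cleavage furrow, differed by 0.053 and -0.14, neither called.

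Chromosome structure genes had the smallest median difference of the roles, -0.024, and 1 call of 7, against 4.66% of all genes called lower. That call was Cenpa, the histone variant that marks centromeres, at 11.77, 11.81 and 11.63 without and 11.36, 11.37 and 11.43 with estradiol. It was 1.28-fold lower (-0.35 ± 0.062, limma adjusted p = 0.0142). Mki67 read 12.75, 12.67 and 12.69 against 12.49, 12.86 and 12.69, and the treated arrays lay on both sides of the untreated ones (-0.022 ± 0.095, limma adjusted p = 0.909). Top2a likewise overlapped, at 11.80, 11.96 and 12.12 against values between 11.93 and 12.12 (0.055 ± 0.092, limma adjusted p = 0.751). The condensin genes Smc2, Smc4 and Ncapd2 differed by 0.024, -0.024 and -0.11. The other probe sets of Smc4 gave -0.225 and -0.197. Cenpe was lower, with groups that did not overlap, and was not called (-0.27 ± 0.080, limma adjusted p = 0.0774).

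The 3 Estradiol arrays were not alike. Estradiol 1 was above the Unstimulated mean for 2 of 38 members, Estradiol 3 for 3 and Estradiol 2 for 13, and the median member stood at -0.24, -0.17 and -0.091 on them. Estradiol 2 also had the largest 3′ to 5′ difference of the cell line arrays in the actin control probe sets, 0.74 against 0.39 to 0.48 on the other 5. Without Estradiol 2 the median was -0.22 and 17 members were called lower, against 6.22% of all genes.

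Members with and without TTTGAA in the promoter had a median estradiol difference of -0.18 (22 genes) and -0.11 (8 genes). In pregnancy these medians were 0.30 and 0.31. The values are a description, with no test.

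The pregnancy comparison asked how lavage cells of pregnant mice differed from those of control mice. Most members had higher values in pregnancy, but no gene passed the test. Of the 38 members 36 had a positive difference, against 60.5% of all genes, with a median of 0.30 against 0.030 and a range from -0.017 to 0.58. limma called 0 of 38 members and 0% of all 12393 genes, and 0 members were called under each of the alternatives run. On simulated data with equal spread, the same fit called 1.49% of true log2 changes of 0.25 and 49.3% of those of 0.5. The lack of calls therefore does not show a lack of change of this size. At an unadjusted p under 0.05, 8 members were higher and 0 lower, against 6.14% and 3.24% of all genes. The Pregnant arrays lay above all Control arrays for 8 members, against 10.7% of all genes.

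The members with the smallest p came from several roles. Bub1 read 8.97, 9.24 and 9.02 in Control and 9.28, 9.77 and 9.94 in Pregnant arrays. The groups were apart by a narrow gap, with a mean difference of 0.58 ± 0.17 (SE, n = 3 against 3; limma unadjusted p = 0.0140, adjusted p = 0.461). Ect2 read 9.49, 9.82 and 9.74 against 9.88, 10.16 and 10.18 (0.39 ± 0.12, limma adjusted p = 0.467). Tpx2 read 9.41, 9.56 and 9.59 against 9.66, 9.93 and 10.22 (0.42 ± 0.14, limma adjusted p = 0.483), and Pregnant 3 was the highest array. Aurkb read 9.12, 9.51 and 9.23 against 9.58, 9.62 and 10.13 (0.49 ± 0.17, limma adjusted p = 0.485), again with Pregnant 3 highest. Foxm1, Cdk1, Cdc20 and Aurka made up the rest of the 8, with differences of 0.45, 0.37, 0.39 and 0.30.

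The median by role was 0.40 for mitotic entry, 0.35 for the kinases and 0.30 for the checkpoint and anaphase genes. For the motors and microtubule proteins it was 0.35, and for chromosome structure 0.125. Mki67 read 11.15, 11.45 and 11.44 against 11.41, 11.59 and 11.78, which overlap (0.25 ± 0.12, limma adjusted p = 0.590). Cdc25b and Bub3 were the members with a negative value, -0.001 and -0.017. Kif11 showed how uneven the pregnant arrays were: 8.51, 8.69 and 8.62 in Control and 8.70, 8.06 and 9.42 in Pregnant arrays, so that the lowest and the highest values of the 6 were both from pregnant mice. Cdc25c, Kif4, Cenpe and Nek2 were above the 40th percentile of their array on fewer than 3 of the 6 lavage arrays, and dropping them left 34 members.

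Much of the shift sat on a pair of arrays. Pregnant 3 was the highest of the 6 lavage arrays for 30 of 38 members (78.9%, against 24.5% of all genes), and Control 1 the lowest for 29 (76.3%, against 25.7%). The median member stood 0.086, 0.225 and 0.70 above the Control mean on Pregnant 1, 2 and 3. Pregnant 1 against Control 2 gave 15 of 38 members higher and a median of -0.038. Without Pregnant 3 the median difference was 0.16, and without Control 1 it was 0.21. Without Pregnant 1 it was 0.45. Pregnant 2, which had the low Kif11 value, had the largest 3′ to 5′ actin difference of the lavage arrays, 0.39 against 0.26 to 0.35.

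**Figure D3:**
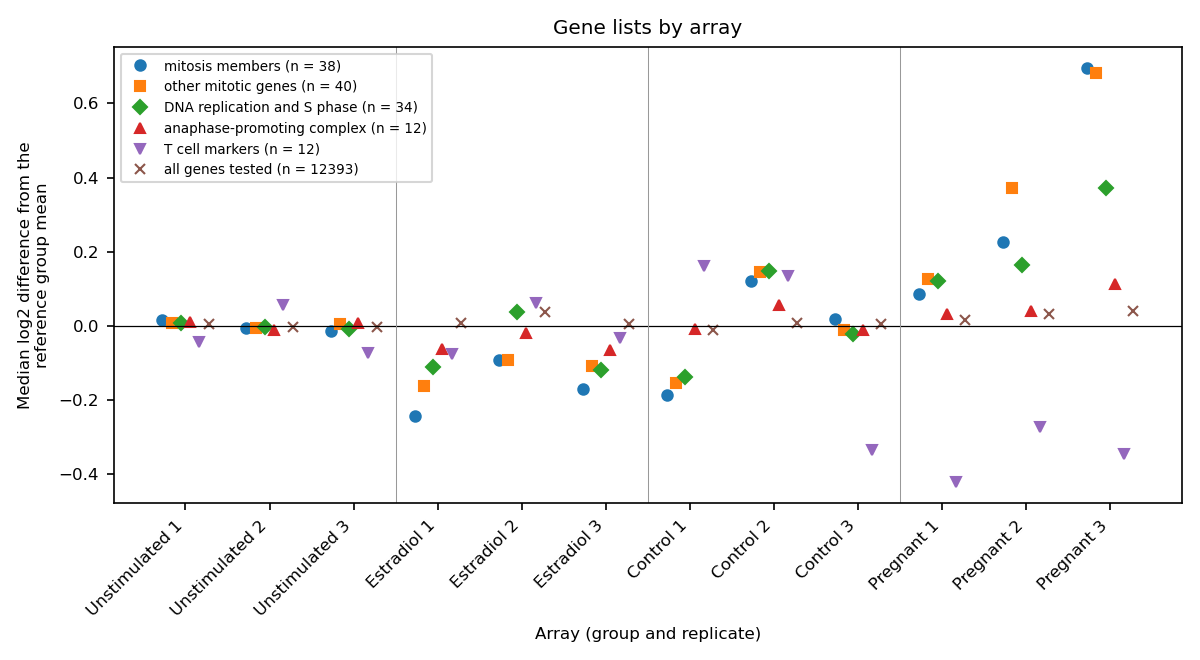
Median log2 difference from the reference group mean (vertical axis; Unstimulated for the cell line, Control for lavage) of each gene list on each array (horizontal axis). Symbols stand for lists. The mitosis members reach 0.70 on Pregnant 3, and Control 1 lies below 0 at -0.19.

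Genes listed as markers of other cells also varied among the lavage arrays. The 12 measured T cell markers summed to 11922 to 12525 on Control and 11163 to 12549 on Pregnant arrays, but Cd2 alone made up 10438 to 11013 and 10121 to 11704 of it. The other 11 summed to 909 to 1755 on Control arrays, lowest on Control 3, and to 844 to 1042 on Pregnant arrays. Of the 12, 9 had a negative difference, with a median of -0.38 and 0 called. The 12 epithelial markers summed to 27144 to 37368 on Control and 31719 to 42232 on Pregnant arrays, and 10 of the 12 were positive, with a median of 0.40 and 0 called. They did not move alike. Against the Control mean the median marker was at -0.21 on Pregnant 3, where Epcam was highest, and Cdh1 had a difference of -0.30. Krt19, the brightest of the list, lay between 13.62 and 13.90 on the lavage arrays, while Sftpc ran from 9.42 to 12.74. Whether the sum follows the share of epithelial cells was not tested. The 9 neutrophil markers summed to 6427 to 20503 and 6730 to 11332, with the highest sum on Control 1, and the 4 erythroid markers to 323 to 990 and 495 to 3020. The 9 B cell markers summed to 442 to 582 and 377 to 518, and the 9 dendritic cell and monocyte markers to 1593 to 2783 and 1161 to 1903, of which 7 of 9 were negative with a median of -0.31. The 16 macrophage markers summed to 138677 to 145844 and 140352 to 143793. The part of these cells in the mitotic values was not tested.

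The estradiol and pregnancy comparisons share no arrays, so their differences could be set against each other. Estradiol was given only to the cell line, and pregnancy was compared only in lavage. A difference between the 2 cannot be told apart from one between cell line and lavage. Of the 38 members 31 (81.6%) were lower with estradiol and higher in pregnancy, against 27.2% of all genes. Cdk1, Aurka, Aurkb, Cdc20 and Tpx2 (13.2% of members, against 1.71% of all genes) had groups that did not overlap in both comparisons. The pregnancy difference minus the estradiol difference was positive for all 38 members, against 52.4% of all genes, with a median of 0.46 against 0.012. In the limma fit of all 12 arrays, 2 members were called higher and 0 lower, against 2.21% and 2.22% of all genes, and 21 were higher at an unadjusted p under 0.05, against 9.92%.

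The called members were Tpx2 (0.70 ± 0.16, limma adjusted p = 0.0354) and Aurkb (0.78 ± 0.20, limma adjusted p = 0.0486). Cdc20 came next (0.65 ± 0.17, limma adjusted p = 0.0585). For the probe sets used, all 3 genes were low in treated cells and high on pregnant arrays relative to their own controls. When probe sets were averaged per gene, Tpx2, whose other probe set was higher with estradiol, was at 0.44 and not called (limma adjusted p = 0.192), and Aurkb was at 0.74 and called (limma adjusted p = 0.0364). The calls were fragile: leaving out single arrays gave 0 to 5 called members, with a median difference of 0.32 without Pregnant 3 and 0.60 without Pregnant 1. The fit assumes a common spread, whereas the median SD of the members was 0.038, 0.088, 0.17 and 0.28 in the Unstimulated, Estradiol, Control and Pregnant groups. Over all genes it was 0.057, 0.095, 0.10 and 0.10, so the members were more scattered than other genes in lavage and not in the cell line.

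**Figure D4:**
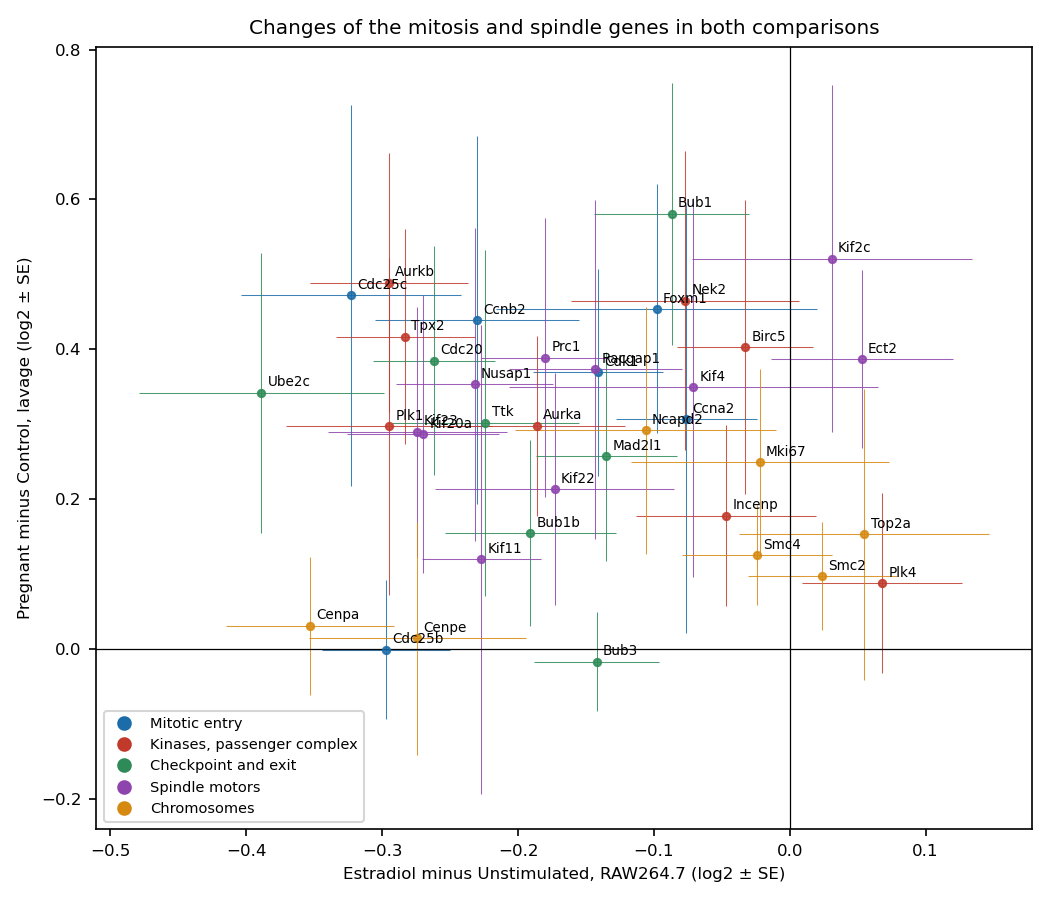
Each point is a member: the estradiol difference in RAW264.7 (horizontal axis, log2 ± SE) against the pregnancy difference in lavage (vertical axis, log2 ± SE), coloured by role. Of the 38 points 31 lie left of 0 and above 0, and Cdc25b and Bub3 lie at or just below 0 on the vertical axis.

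Related gene lists were read in the same fits. Of 40 other mitotic genes, 10 were called lower and 2 higher with estradiol (4.66% and 6.75% of all genes), with a median of -0.11. Those called higher were Psrc1, a spindle protein, at 11.36, 11.40 and 11.39 against 11.88, 11.95 and 11.80 (0.49 ± 0.054, limma adjusted p = 0.00211), and Gtse1, a microtubule-binding regulator of p53, at 9.55, 9.36 and 9.24 against 10.16, 10.16 and 10.03 (0.73 ± 0.087, limma adjusted p = 0.00307). Both are known p53 target genes. Ska1, which couples kinetochores to microtubules, was lower, at 10.34, 10.27 and 10.26 against 9.93, 9.81 and 9.79 (-0.45 ± 0.059, limma adjusted p = 0.00448). In pregnancy 39 of the 40 were positive, with a median of 0.40 and 0 called, and 23 were higher at an unadjusted p under 0.05, against 6.14% of all genes. Of the S phase genes, 4 of 34 were called lower with estradiol and 0 higher, against the same 4.66% and 6.75%, among them the replication helicase subunit Gins1 (-0.28) and thymidine kinase Tk1 (-0.25). In pregnancy 32 of 34 were positive, with 0 called and a median of 0.23.

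Regulators upstream of mitosis were read in the same way. Cdkn1a, the CDK inhibitor p21, read 12.11, 12.22 and 12.19 in Unstimulated and 12.97, 12.96 and 13.00 in Estradiol arrays, a 1.75-fold rise (0.81 ± 0.051, limma adjusted p = 2.5e-04). In lavage Cdkn1a read 11.68, 11.71 and 11.88 and 12.07, 12.09 and 12.05 (0.32 ± 0.073, limma adjusted p = 0.432). Ccnd1, the G1 cyclin D1, read 12.56, 12.62 and 12.49 against 12.93, 12.94 and 13.08 with estradiol (0.42 ± 0.062, limma adjusted p = 0.00754), and its lavage groups overlapped (0.099 ± 0.17, limma adjusted p = 0.874). Mybl2, the B-MYB partner of the MuvB complex, read 9.30, 9.25 and 9.27 against 9.42, 9.57 and 9.13 (0.10 ± 0.11, limma adjusted p = 0.603). In Control lavage it was at 5.46, 6.51 and 6.22, above the 40th percentile of its array on 0 of the 6 lavage arrays, so no fold is given. The anaphase-promoting complex subunits and its late activator Fzr1, 12 genes measured, had a median of -0.046 with estradiol. By limma 0 were called, against 4.66% of all genes called lower and 6.75% higher. At an unadjusted p under 0.05, 1 was lower and 0 higher, against 11.2% and 15.7%. With 12 genes, these counts say little about the complex.

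Several members were measured by more than 1 probe set, with 31 further probe sets over 18 genes. The sign of the further probe set was opposite to the one used for 9 of the 31 in the estradiol comparison, 6 in pregnancy and 1 in the lavage and cell line comparison. With estradiol those of Kif11 gave -0.22 and -0.93 against -0.23, and that of Bub1 gave 0.30 against -0.087. Those of Kif2c gave -0.087, -0.12 and -0.42 against 0.031. Those of Incenp gave -0.17 and -0.38 against -0.047, and those of Plk4 gave -0.059 and -0.29 against 0.068. That of Racgap1 gave -0.31 against -0.14. The size of these differences therefore depended on the probe set used. Over all 69 probe sets of the members, 8 were higher with estradiol.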

How the data were processed

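The processed table held Affymetrix probe set intensity values that the authors had normalized with RMA, per the submitters' processing notes, with no version given. RMA usually gives log2 values, but the deposited intensity values were on a linear scale, so log2(intensity + 1) was analysed. RNA was extracted with a column kit including DNase digestion and labelled with biotin, per the labels' protocols. Of 22690 probe sets, 64 were controls, 20380 had 1 gene symbol, 691 had several and 1555 had none. Gene names came from the platform annotation.

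The probe set with the highest mean stood for each of 12393 genes. Differences were tested with limma 3.58.1 in R 4.3.3 (lmFit and eBayes, two-sided, Benjamini-Hochberg over all genes, adjusted p under 0.05), each on its 6 arrays. The difference between the estradiol and pregnancy differences used all 12. No array pair was identical. The members and all gene lists were chosen with earlier results of these data known. All members may be named. Per-array values were given for those with the smallest p in each comparison and those beside the threshold, and other lists gave the genes with the smallest p, and Cdkn1a, Ccnd1 and Mybl2 were named by rule. Mki67, Top2a, Cdk1 with estradiol, Kif11 in pregnancy and the markers Cd2, Cdh1, Krt19 and Sftpc were added after their values were seen. The fits were tested on simulated data with equal spread in all groups, which these groups do not have. False calls there made up 1.56% of called genes in the estradiol fit, 4% in the pregnancy fit and 6.98% in the lavage and cell line fit. In the 12-array fit they made up 9.41%, above the nominal rate even with equal spread. An earlier simulation with each group's own spread also gave more false calls than the nominal rate, in the estradiol and the 12-array fits. Alternatives covered the pseudocount, scaling, dim genes, probe set choice, the variance prior, array weights, a joint fit and leaving out each array. Promoters came from RefSeq (GRCm38.p6).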

Additional observations from a re-analysis of the deposited data

Results flagged for a closer look

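Aurkb and Tpx2 stood out because their differences in the estradiol and the pregnancy comparison differed from each other in a direct test. For Aurkb the pregnancy difference exceeded the estradiol difference by 0.78 (log2), and for Tpx2 by 0.70, with limma adjusted p-values of 0.0486 and 0.0354 over all genes. All 3 Estradiol arrays were below, and all 3 Pregnant arrays above, their own controls for both genes, in the probe sets used. The other probe set of Tpx2 was higher with estradiol, by 0.21, and with probe sets averaged per gene its value was 0.44 and not called (limma adjusted p = 0.192). Leaving out each array in turn and the other alternatives left Aurkb called in 13 and Tpx2 in 11 of 21 settings. Neither was called when any of the Unstimulated arrays, Estradiol 1, Estradiol 3 or Control 3 was left out. The test takes 1 spread for cell line and lavage, which differ in spread, and the cause of the difference was not tested. Estradiol against pregnancy cannot be told apart in it from cell line against lavage.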

How the results depend on the processing

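The count of members called lower with estradiol, 11, was 5 with arrays at a common median, 17 after a filter on dim genes, 17 with an intensity-dependent robust prior, 24 with array weights and 2 with all 12 arrays in the fit. In the same order 3.35%, 11.1%, 6.86%, 15.0% and 3.52% of all genes tested were called lower, against 4.66%. The array weights of the estradiol fit stopped before reaching their tolerance, so that count of 24 is doubtful. The count ranged from 0 to 17 over the leave-outs of 1 array, with 1.94% to 6.22% of all genes called lower and medians from -0.22 to -0.15. The cause was not tested, beyond the filter testing fewer genes and the leave-outs using fewer arrays. The lavage and cell line median of -2.19 was -2.13 when probe sets were averaged per gene and -2.14 with array weights, and -2.23 to -2.11 over the leave-outs, with 37 to 38 members called. Over these leave-outs 29.7% to 33.0% of all genes were called lower. The pregnancy median ranged from 0.16 to 0.45 and the count stayed at 0. The count of members whose pregnancy and estradiol differences differed, 2, was 1 when probe sets were averaged, 5 with array weights and 0 to 5 over the leave-outs. In the same order 2.09%, 5.87% and 0.96% to 2.36% of all genes were called higher, against 2.21%. Over the leave-outs the medians were 0.32 to 0.60. No difference reversed its sign in any alternative for these summaries. No paired analysis was possible because the labels carry no replicate numbers. Probe sets near background, such as those of Nek2 in lavage, limit what their differences show.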

Other observations

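Inhibitors and cyclins outside mitosis were read as a list of 15 genes. With estradiol 4 were called higher and 1 lower by limma (6.75% and 4.66% of all genes). In pregnancy 0 were called, and 1 was higher at an unadjusted p under 0.05, against 6.14% of all genes. The antiproliferative gene Btg2 was at 9.63, 9.58 and 9.59 on Unstimulated and 10.57, 10.36 and 10.47 on Estradiol arrays, a difference of 0.87 ± 0.064 (SE, n = 3 against 3, limma adjusted p = 0.00044). Cdkn2c, an inhibitor of CDK4 and CDK6, was the called member that was lower, at 11.10, 11.19 and 11.04 against 10.55, 10.10 and 10.34, a difference of -0.78 ± 0.11 (limma adjusted p = 0.00686). In lavage, Btg2 was at 11.66, 11.41 and 11.44 on Control and 11.41, 10.85 and 11.42 on Pregnant arrays, which overlap. Its pregnancy difference was below its estradiol difference by 1.15 (log2) in the limma fit of all 12 arrays. Among the transcription regulators of the cycle, E2f5 and Rb1 were called higher with estradiol, by 0.32 and 0.26, and 0 of 16 were called lower (6.75% and 4.66% of all genes).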
